A study of Mus musculus with 24 samples.

Results

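The genes described here are 9 genes of stem and multipotent progenitor cells, Meis1, Mecom, Hlf, Gata2, Hhex, Lmo2, Kit, Flt3 and Cd34, out of 21627 protein-coding genes in the reference. Each was followed through the ATAC-seq peaks that lay in its gene body and 10 kb on both sides. ATAC-seq marks DNA that a transposase can reach, so a peak is a stretch of open chromatin and not a measure of RNA or protein. The cells came from mouse bone marrow and were sorted B-cell progenitors of 3 stages from wild-type mice (WT) and from mice lacking Mki67 (Mki67-/-), the gene of the proliferation protein Ki67. In order of development the stages are pre-pro-B, then pro-B, then small pre-B. Each of the 6 groups held 4 libraries, 24 in all. The labels give no age or sex, no sorting markers and no description of the Mki67 allele, and do not say whether libraries came from separate mice or whether the stages share mice. The p-values therefore measure the spread between libraries, which may be partly technical. The labels call all cells lymphoid progenitors, and the stages differed at genes that define them: Ebf1, the early B-cell factor, had 4.88 ± 1.36 strong peaks in pre-pro-B and 17.4 ± 1.60 in pro-B libraries (SD, n = 8 each).

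Blood stem cells keep their identity through a network of DNA-binding proteins. Meis1 and the HOX proteins it binds, the zinc-finger proteins Mecom and Gata2, the PAR bZIP factor Hlf, the homeodomain protein Hhex and the adaptor Lmo2, which bridges GATA and basic helix-loop-helix proteins, act in these cells. Kit and Flt3 are receptor tyrosine kinases for stem cell factor and Flt3 ligand, and Cd34 is a surface sialomucin used to sort progenitors. As progenitors commit to the B lineage, Ebf1 and Pax5 establish the B-cell program, and much of the earlier network is silenced.

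The promoters of these genes were read as sequence. A promoter was in the RefSeq table (GRCm38.p6, the assembly of mm10) for 8 of the 9 genes, with 11 start sites. The table held no entry for Lmo2. The 250 bases before the start are printed 5′ to 3′ on the gene's strand, with each CG dinucleotide in capitals. Flt3 and Hhex are shown because their start was open in every library, Cd34 and the inner start of Mecom because their peak was lost along the stages, and the distal start of Gata2 because it was never strongly open. Flt3 lies at chr5:147400490-147400739 (minus strand), Hhex at chr19:37434591-37434840 (plus), Cd34 at chr1:194938571-194938820 (plus), Mecom at chr3:30013205-30013454 (minus) and Gata2 at chr6:88193641-88193890 (plus).
Flt3: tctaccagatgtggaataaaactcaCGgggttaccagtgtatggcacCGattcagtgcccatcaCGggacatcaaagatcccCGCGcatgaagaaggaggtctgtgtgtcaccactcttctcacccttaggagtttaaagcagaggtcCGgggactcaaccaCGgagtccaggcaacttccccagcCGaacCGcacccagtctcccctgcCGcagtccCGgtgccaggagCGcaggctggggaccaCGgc
Hhex: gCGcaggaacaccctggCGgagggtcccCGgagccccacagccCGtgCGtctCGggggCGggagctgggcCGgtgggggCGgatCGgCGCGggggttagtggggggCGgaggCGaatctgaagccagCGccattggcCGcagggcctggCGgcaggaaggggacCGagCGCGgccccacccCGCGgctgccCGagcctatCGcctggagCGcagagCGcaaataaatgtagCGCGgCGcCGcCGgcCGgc
Cd34: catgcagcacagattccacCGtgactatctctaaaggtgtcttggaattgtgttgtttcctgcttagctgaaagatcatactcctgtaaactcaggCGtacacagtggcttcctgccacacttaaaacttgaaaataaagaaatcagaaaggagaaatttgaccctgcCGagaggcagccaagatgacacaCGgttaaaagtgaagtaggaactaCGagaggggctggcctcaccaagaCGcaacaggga
Mecom inner start: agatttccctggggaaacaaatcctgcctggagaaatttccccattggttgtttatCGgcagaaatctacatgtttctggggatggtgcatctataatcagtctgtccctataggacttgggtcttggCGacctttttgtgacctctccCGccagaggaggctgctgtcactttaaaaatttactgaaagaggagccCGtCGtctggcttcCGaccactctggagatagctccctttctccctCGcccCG
Gata2 distal start: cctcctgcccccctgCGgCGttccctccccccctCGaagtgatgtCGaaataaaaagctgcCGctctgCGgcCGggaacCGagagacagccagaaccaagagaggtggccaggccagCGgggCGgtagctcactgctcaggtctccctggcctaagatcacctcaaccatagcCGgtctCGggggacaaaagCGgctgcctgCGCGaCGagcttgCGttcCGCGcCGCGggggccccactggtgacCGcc
The Hhex promoter held 32 CG dinucleotides, more than 95.4% of the 32851 promoters in the table. The Gata2 window held 22 and the Flt3 window 13. The Mecom and Cd34 windows held 8 and 6, and the median over all promoters was 6. The distal Gata2 promoter held more CG dinucleotides than that of Flt3, and its peak, where there was one, ranked lower in every library. Of short motifs searched on both strands, AGATAA, a form of the core bound by GATA factors, was in 0 of the 11 member windows and in 9.99% of all promoters. Other forms of that core, such as the AGATAG in the printed inner Mecom window, were not searched. TGTGGT, a RUNX-type core, was in 1 (Meis1; 14% of all), as was CCGGAAG, an ETS-type core (Meis1; 6.91% of all). TGACAG, a MEIS-type core, was in 1 (the inner Mecom start; 15.9% of all). CANNTG, the E-box, was in 4 of 11 and in 66.2% of all. These matches describe letters and not bound sites. The Kit windows, before starts at 75574987 and 75574991, share nearly all their bases, so the 11 windows are not all separate.

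The deposited lists held between 54387 and 88946 peaks per library after merging of overlapping entries, and the longest were in pre-pro-B. For comparisons between stages, the 40000 peaks with the highest -log10 q of each library were therefore taken, called strong peaks below. The q-value is the peak caller's adjusted p-value for a peak against the local background. Background coverage, recovered from the peaks and standing for depth, ran from 1.86 to 5.3 across libraries. Differences in means were tested by two-sided exact permutation tests and adjusted by the Benjamini-Hochberg method over all genes or regions tested, with a threshold of 0.05. For their peak number 3 libraries were left out in a further run: replicate 4 of Mki67-/- pre-pro-B (67920 peaks), replicate 1 of Mki67-/- small pre-B (54387) and replicate 1 of WT small pre-B (85621, of which 17278 regions were in no other library). By Dixon's criterion, used further below, none of the 3 stood apart from its group in peak number. They were kept in the main tests. Without them 7 member genes changed from pre-pro-B to pro-B and 4 from pro-B to small pre-B, where the full set gave 6 and 3. Of all genes 47.7% and 22% then changed, against 45.8% and 23.3% in the full set. The counts of changed member regions were 21 and 6 where the full set gave 20 and 7, with 46.3% and 19.4% of all regions against 44.3% and 21.4%. In a bulk sample, fewer cells with an open site and a less open site in each cell cannot be told apart.

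Over the whole course from pre-pro-B to small pre-B, strong peaks near these genes were fewer stage by stage. Summed over the 9 genes, pre-pro-B libraries had 30 to 39 strong peaks (median 36.5). The sum was 23 to 29 (median 26) for pro-B libraries and 16 to 24 (median 20.5) for those of small pre-B. The pre-pro-B libraries did not overlap the pro-B libraries, while pro-B and small pre-B libraries shared part of their range. In pre-pro-B the sums were 39, 38, 38 and 37 in WT and 36, 35, 32 and 30 in Mki67-/-. The genotypes did not overlap there, while in the later stages they did. How often sums over other genes did so was not counted, and the cause was not tested. The genes took different courses: Meis1 fell at both steps, Mecom, Hhex and Flt3 at the first, and Hlf and Gata2 rose and then fell.

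From pre-pro-B to pro-B, 4 of the 9 genes had fewer strong peaks past the test and 2 had more. Among all 16213 genes tested, 45.8% changed, 21.1% lower and 24.7% higher. The median difference of the 9 was -0.88 peaks, and that over all genes was 0. Among the 20000 strongest peaks, where Gata2 and Cd34 had too few to be tested and 37.7% of all genes changed, Mecom was lower and Hlf, Lmo2 and Kit were higher. Meis1, Hhex and Flt3 were not called there. In the deposited lists 5 of 9 were lower at this step (Mecom, Lmo2, Kit, Flt3 and Cd34) and 0 higher, where 46.8% of all genes changed. Of all genes there, 25.6% were lower and 21.2% higher. From pro-B to small pre-B, 3 of 9 were lower (Meis1, Hlf and Gata2) and 0 higher, where 23.3% of 15741 genes changed, 11.9% lower and 11.4% higher. The deposited lists also gave 3 lower and 0 higher at that step, with Mecom in place of Gata2, where 22.7% of genes changed, 16.6% lower and 6.12% higher. Lists of other cell types took different courses over the same steps. Strong peaks at 12 early B genes had a median sum of 36, 79.5 and 68.5 in the 3 stages, and those at 8 T and NK cell genes 25, 11 and 8. The 8 myeloid genes had 21.5, 13 and 17, with Lyz2 at 0 in every small pre-B library. The 8 erythroid and megakaryocyte genes had 12, 14 and 12. For 6 mature B genes the medians were 18, 18 and 22.5, and for 6 plasmacytoid dendritic cell genes 29, 41.5 and 44. For 22 other stem and multipotent progenitor genes, given further below, they were 100, 115 and 105.5. In the T and NK list Cd3e and Cd8a were at 0 in every pro-B and small pre-B library and Bcl11b was at 0 in every pro-B library, while none of the 8 was at 0 throughout pre-pro-B. The part of other cells in the results at the 9 genes was not tested.

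**Figure D1:**
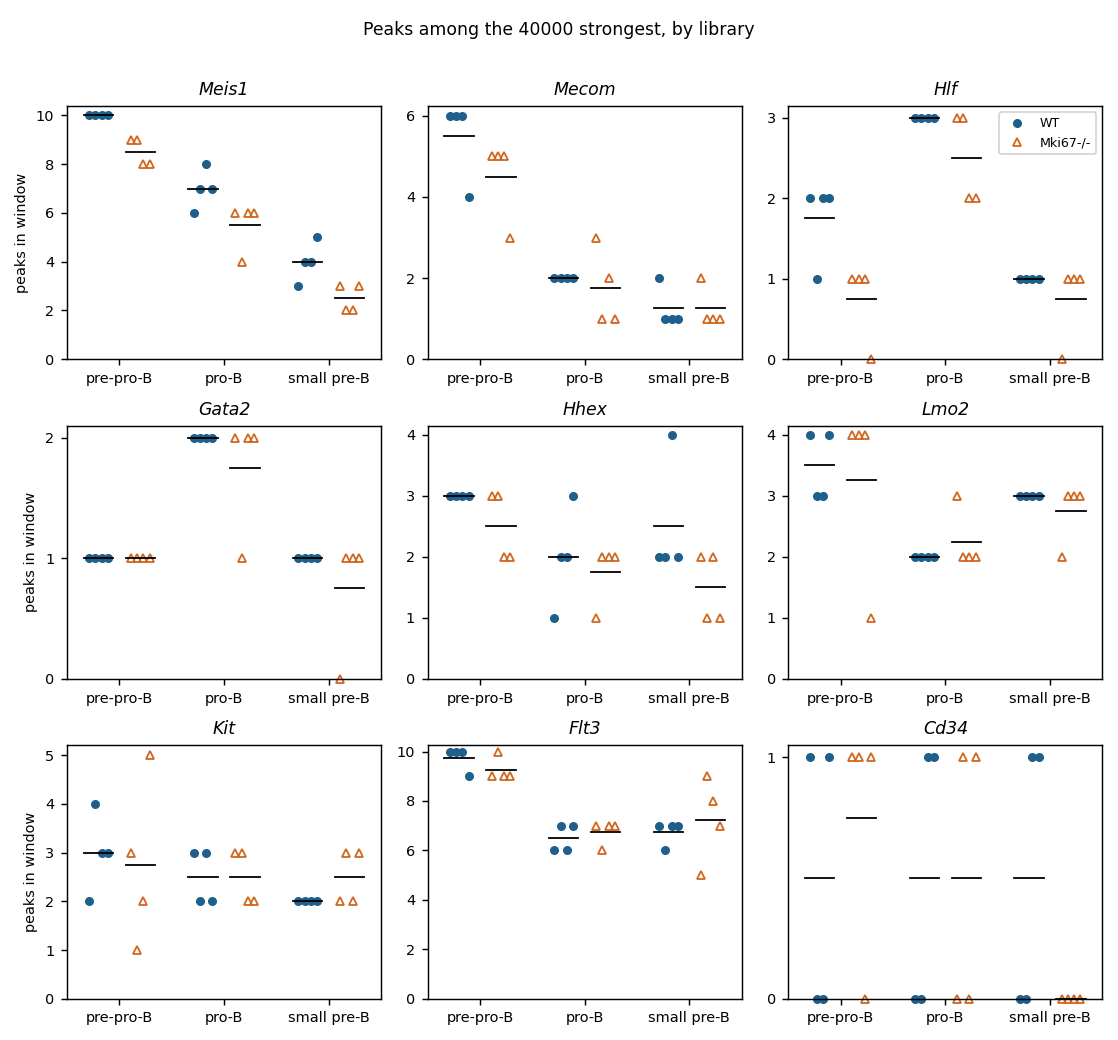
Number of strong peaks (among the 40000 of highest -log10 q) in each gene's window (y axis) by stage (x axis), 1 point per library, WT as filled circles and Mki67-/- as open triangles, with a black line at each group's mean of 4. Meis1 steps down from 8 to 10 peaks in pre-pro-B to 2 to 5 in small pre-B, while Hlf and Gata2 peak in pro-B.

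Meis1 encodes a homeodomain protein of the TALE class. Its window on chromosome 11, 18870428 to 19029651, spans 159.2 kb. The WT libraries had 10, 10, 10 and 10 strong peaks in pre-pro-B, then 6, 7, 8 and 7, then 3, 4, 4 and 5. The Mki67-/- libraries had 9, 9, 8 and 8, then 6, 4, 6 and 6, then 3, 2, 2 and 3. Every stage lay apart from the next within WT, and in Mki67-/- too. Pooled over genotypes, the mean fell from 9.25 ± 0.886 to 6.25 ± 1.16 (SD, n = 8 each), with an adjusted p of 0.00164 by the exact permutation test, and then to 3.25 ± 1.04, with an adjusted p of 0.00468 by the same exact test. In the deposited lists the first step was not seen: 16.9 ± 1.55 peaks in pre-pro-B and 18 ± 2.20 in pro-B (exact test, adjusted p = 0.346), before 7.88 ± 2.85 in small pre-B (exact test, adjusted p = 0.00681).

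At Meis1 the start had a peak at every stage, and the regions that left the strong peaks lay far from it. The region over the start, chromosome 11, 19018559 to 19019544, had a peak in 24 of 24 libraries, with a median rank in the top 14.1% of its list. Exon positions were not used here, so regions are placed by distance from the start. A region 93.5 to 94.4 kb into the gene was also among the strong peaks of all 24. Sites 21.6 to 22.6 kb and 111.3 to 112.0 kb into the gene had a strong peak in 8 of 8 pre-pro-B libraries. No peak of any rank lay there in the 16 later ones (exact test, adjusted p = 0.0014 each). Both met the filter of a peak in at least 4 compared libraries through pre-pro-B alone. This p therefore adds no support to the counts. A site 48.4 to 49.1 kb in was strong in 8 of 8 pre-pro-B and 0 of 8 pro-B libraries, and another at 60.6 to 61.5 kb in 8 and 1. A site went the other way, 134.6 to 135.5 kb into the gene, near its far end. It was a strong peak in 8 of 8 pro-B libraries and 0 of 16 others (exact test, adjusted p = 0.0014 and 0.00421). For both steps it met the filter through pro-B alone, so these p-values add no support to the counts. In the deposited lists this site had a peak in 23 of 24 libraries, and its median rank over the stages, in order, was 71.2%, 26.3% and 80.0% of the list.

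Mecom encodes the zinc-finger protein EVI1 and its longer MDS1-EVI1 form from an upstream start. Strong peaks numbered 6, 6, 6 and 4 in WT and 5, 5, 5 and 3 in Mki67-/- pre-pro-B libraries. They numbered 2, 2, 2 and 2 in WT and 3, 1, 2 and 1 in Mki67-/- pro-B libraries, and 1 or 2 in every small pre-B library. In WT the 2 earlier stages did not overlap, and in Mki67-/- they met at 3. The first step went from 5.0 ± 1.07 to 1.88 ± 0.641 (exact test, adjusted p = 0.00308), and the second was not called (1.25 ± 0.463 in small pre-B; exact test, adjusted p = 0.293). In the deposited lists Mecom fell at both steps, from 15.5 ± 3.74 to 6.38 ± 0.518 and 3.25 ± 1.28 peaks (exact test, adjusted p = 0.00207 and 0.0128).

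The inner start, from which EVI1 is made, had a peak in 8 of 8 pre-pro-B and 0 of 16 later libraries, though a weak one, with ranks from 70.6% to 95.2% of the list. A pair of neighbouring regions 94.9 to 97 kb from the upstream start were the strongest pre-pro-B sites of the gene, with median ranks of 10.2% and 14.2%. They were strong in 8 of 8 pre-pro-B libraries, and in 0 and 1 of 8 pro-B libraries (exact test, adjusted p = 0.0014 and 0.00557). Both regions met the filter through pre-pro-B alone, so these p-values add no support to the counts. Just inside the upstream start, 0.73 to 2.80 kb from it, a region kept a strong peak in all 24 libraries.

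Flt3 and Kit are the receptors of the set. Flt3 had 10, 10, 10 and 9 strong peaks in WT and 9, 10, 9 and 9 in Mki67-/- pre-pro-B libraries. Every pro-B library had 6 or 7, so the stages did not overlap. Small pre-B libraries had 7, 6, 7 and 7 in WT and 5, 9, 8 and 7 in Mki67-/-, which covered the pro-B values. The fall from 9.50 ± 0.535 to 6.63 ± 0.518 passed the exact test (adjusted p = 0.00164), and the second step did not (7.0 ± 1.20, exact test, adjusted p = 1). With 50 kb on both sides of the gene the first difference was 1.00 peak upward (exact test, adjusted p = 0.107). The second was then -3.75 peaks and passed the exact test (adjusted p = 0.00356). The window also holds Urad, a gene of urate breakdown.

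The Flt3 start (chromosome 5, 147399770 to 147401277) ranked within the top 8.45% of peaks in all 24 libraries, and its median rank, 3.60%, was the best of the 9 start regions ranked. Sites 58.8 to 59.9 kb and 36.9 to 37.9 kb into the gene were also strong in all 24 libraries. A site 60.3 to 61.1 kb into the gene closed and opened again: it was strong in all 16 pre-pro-B and small pre-B libraries and in 0 of 8 pro-B libraries. Both steps passed the exact test (adjusted p = 0.0014 and 0.00421). At each step the site met the filter only through the stage where it was strong. These p-values therefore add no support to the counts. Only 1 pro-B library had any peak there. Directly beside it, at 61.1 to 61.5 kb, a narrower region had a peak in 0 of 8 pre-pro-B libraries and in all 16 later ones. Because regions were joined where peaks of any library touched, these neighbours may be parts of 1 site whose borders differ between stages. Sites 7.12 to 8.04 kb and 45.7 to 46.4 kb into the gene were strong in 8 of 8 pre-pro-B and 0 of 8 pro-B libraries.

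Kit, the receptor of stem cell factor, had 2, 4, 3 and 3 strong peaks in WT and 3, 1, 2 and 5 in Mki67-/- pre-pro-B libraries. All 16 later libraries had 2 or 3, inside that range, and neither step was called (exact test, adjusted p = 0.89 and 1). By deposited lists it fell at the first step, from 7.63 ± 1.92 to 2.88 ± 0.835 peaks (exact test, adjusted p = 0.00207). With 20000 peaks it went the other way, up by 1.13 peaks at the first step and then by -1.13 at the second (exact test, adjusted p = 0.0222 and 0.0236), so the direction at Kit depends on how many peaks are taken. The Kit start had a strong peak in all 24 libraries. Its median rank over the stages, in order, was 27.9%, 11.2% and 33.0%. These ranks come from lists of different length and are given as a description. Sites 65.4 to 66.3 kb and 86.8 to 88.0 kb from the start had a peak in 8 of 8 pre-pro-B and 0 of 16 later libraries. An intragenic site at 29.2 to 30.0 kb had a peak in 24 of 24 deposited lists. The site was strong in all 8 pro-B libraries, 1 of 8 before and 2 of 8 after (exact test, adjusted p = 0.00557 and 0.0315). Among strong peaks it met the filter through pro-B alone, so these p-values add no support to the counts.

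**Figure D2:**
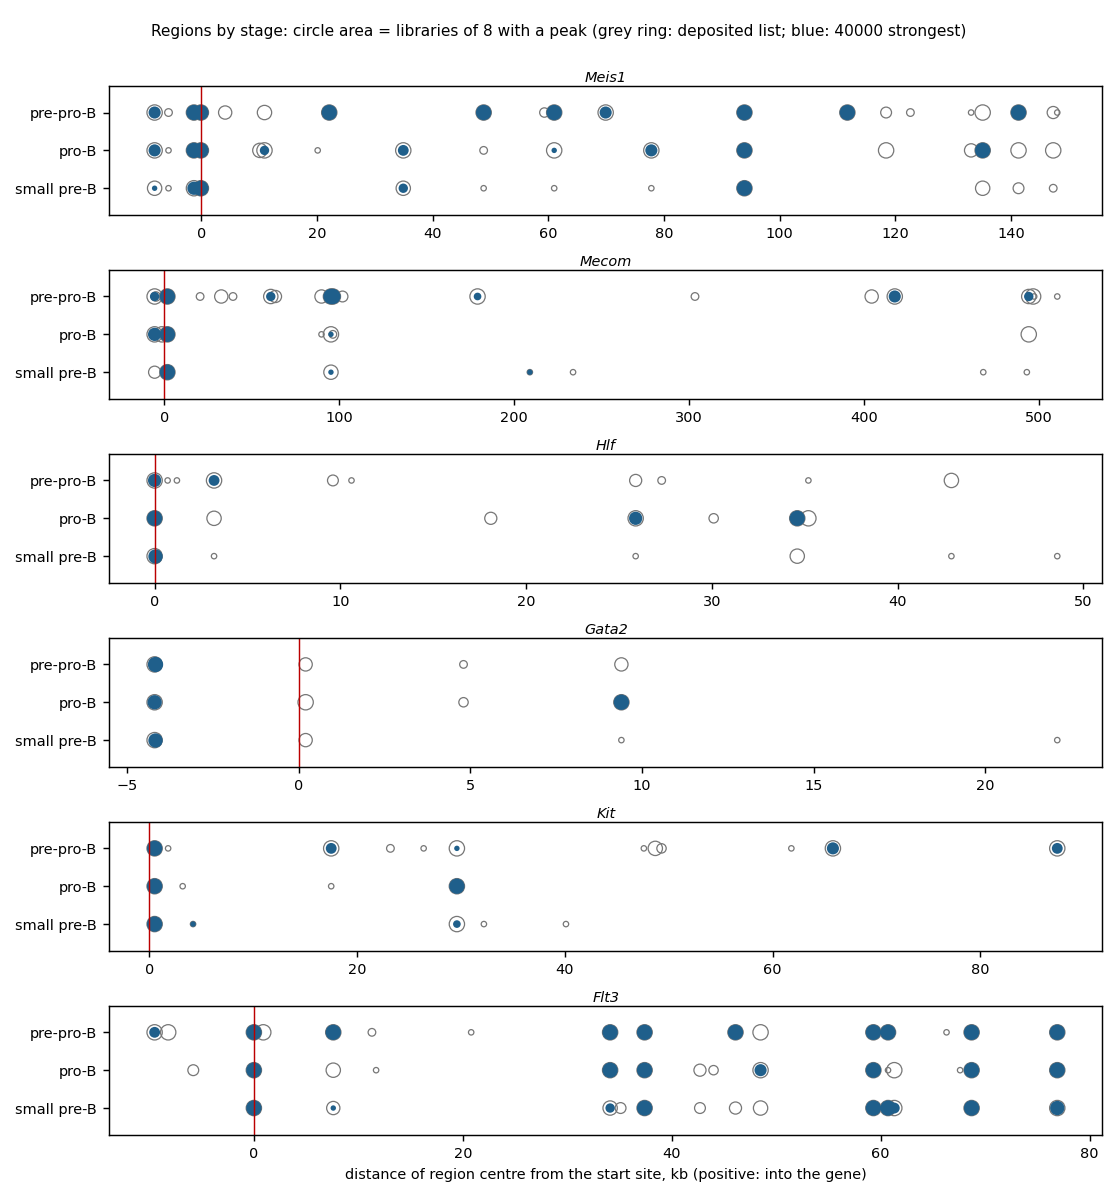
Regions in 6 gene windows by distance of the region's centre from the start site in kb (x axis; for genes with several starts, the most upstream one) and by stage (rows). The area of a grey ring is the number of libraries of 8 with a peak in the deposited list, that of a blue disc the number with a strong peak, and the red line marks the start. Discs at the start of Meis1, Kit and Flt3 stay in all stages, while several Meis1 and Flt3 sites within the gene are full in pre-pro-B and empty in pro-B.

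Hlf and Gata2 followed another course, with most strong peaks in pro-B. In WT Hlf had 2, 1, 2 and 2 strong peaks in pre-pro-B, then 3, 3, 3 and 3, then 1, 1, 1 and 1. The Mki67-/- libraries had 1, 1, 1 and 0, then 3, 3, 2 and 2, then 0, 1, 1 and 1. In both genotypes the pro-B values lay above those of the other stages. The mean rose from 1.25 ± 0.707 to 2.75 ± 0.463 (exact test, adjusted p = 0.00164) and fell to 0.875 ± 0.354 (exact test, adjusted p = 0.00468). The rise was not called in the deposited lists or with 50 kb on both sides (1.13 and 0.50 peaks; exact test, adjusted p = 0.206 and 0.199), nor the fall with 20000 peaks (-0.38 peaks; exact test, adjusted p = 0.711). The added sites lay 34.2 to 34.9 kb and 25.6 to 26.2 kb into the gene. The former was strong in 8 of 8 pro-B and 0 of 16 other libraries, and the latter in 6 of 8 and 0 of 16. The Hlf start had a peak in all 24 deposited lists and was strong in 21.

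Gata2 had 1 strong peak in all 8 pre-pro-B libraries, 2 in 7 of 8 pro-B libraries and 1 in the remaining one, replicate 2 of Mki67-/-. In small pre-B 7 of 8 libraries had 1 and replicate 1 of Mki67-/- had 0. The mean rose from 1.00 ± 0 to 1.88 ± 0.354 (exact test, adjusted p = 0.00587) and fell to 0.875 ± 0.354 (exact test, adjusted p = 0.0129). The added peak was 1 region, chromosome 6, 88202918 to 88203583, within the gene and 9.03 to 9.69 kb from the distal start. It was strong in 8 of 8 pro-B and 0 of 16 other libraries (exact test, adjusted p = 0.0014 and 0.00421). The region met the filter through pro-B alone, so these p-values add no support to the counts. The deposited lists had it in 8 of 8 pro-B libraries, in 6 of 8 before and in 1 of 8 after. Neither Gata2 start was ever a strong peak: the distal start had a weak one in 20 of 24 deposited lists and the inner start in 5. In the deposited lists the Gata2 counts were 2.75 ± 0.886, 4.00 ± 1.07 and 2.5 ± 1.07, and neither step was called (exact test, adjusted p = 0.0748 and 0.0814).

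The remaining members are the homeodomain factor Hhex, the adaptor Lmo2 and the surface protein Cd34. Hhex had 3, 3, 3 and 3 strong peaks in WT and 3, 3, 2 and 2 in Mki67-/- pre-pro-B libraries, against 1, 2, 2 and 3 and 1, 2, 2 and 2 in pro-B, so the stages overlapped. The fall from 2.75 ± 0.463 to 1.88 ± 0.641 passed the exact test (adjusted p = 0.0447), while the deposited lists gave a difference of 0.375 peaks and the gene body alone 0.875 peaks upward (exact test, adjusted p = 0.838 and 0.0293). It did not pass when any of 3 Mki67-/- libraries was left out: pre-pro-B replicate 1 (adjusted p = 0.0781), pre-pro-B replicate 2 (0.0779) or pro-B replicate 1 (0.0600), each by the exact test. Its start was in the top 12.6% of all 24 lists, and 2 sites downstream of the gene left the strong peaks. The one 7.94 to 8.66 kb from the start had no peak in any pro-B library, and the one at 13.3 to 14.2 kb still had a weaker peak in 5 of 8.

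Lmo2 had 3 or 4 strong peaks in all pre-pro-B libraries but replicate 4 of Mki67-/-, which had 1, and 2 in all pro-B libraries but replicate 1 of Mki67-/-, which had 3. Small pre-B libraries had 3, except replicate 1 of Mki67-/- with 2. The first difference, 3.38 ± 1.06 to 2.13 ± 0.354, missed the threshold (exact test, adjusted p = 0.0529). It passed in 10 of 16 runs that left out 1 library, most clearly without the low pre-pro-B library (-1.63 peaks; exact test, adjusted p = 0.00303). The second, to 2.88 ± 0.354, missed it too (exact test, adjusted p = 0.0553) and passed in 10 of 16 such runs, with an adjusted p from 0.0124 to 0.0535 by the exact test. With 20000 peaks the first difference was 1.00 peak upward and passed the exact test (adjusted p = 0.00191), opposite to the deposited lists. The 10 kb just outside the Lmo2 window held 2.83 strong peaks on average, which are not in these counts. In the deposited lists Lmo2 fell at the first step, from 7.38 ± 1.41 to 3.38 ± 0.518 peaks (exact test, adjusted p = 0.00207). Regions at chromosome 2, 103959866 to 103960530 and 103965120 to 103965797, had a peak in 8 of 8 pre-pro-B and 0 of 16 later libraries, and the region at 103969288 to 103971062 was strong in all 24.

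Cd34 had 0 or 1 strong peak in each library, and 0 in all 4 Mki67-/- small pre-B libraries. By deposited lists it had 5, 5, 3 and 4 peaks in WT and 3, 5, 5 and 2 in Mki67-/- pre-pro-B libraries, and 1 or 2 in each pro-B library, so the stages met at 2. That fall, from 4.00 ± 1.20 to 1.63 ± 0.518, passed the exact test (adjusted p = 0.00475). The start of Cd34, chromosome 1, 194938524 to 194939357, had a peak in 16 of 16 pre-pro-B and pro-B libraries and in 0 of 8 small pre-B libraries. It was the only one of the 89 member regions tested with that pattern, which 0.609% of all regions had. The median rank of this peak was 67.7% of the list in pre-pro-B and 52.9% in pro-B. Small pre-B lists had the lowest median length, and the part of list length in this loss was not tested.

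**Figure D3:**
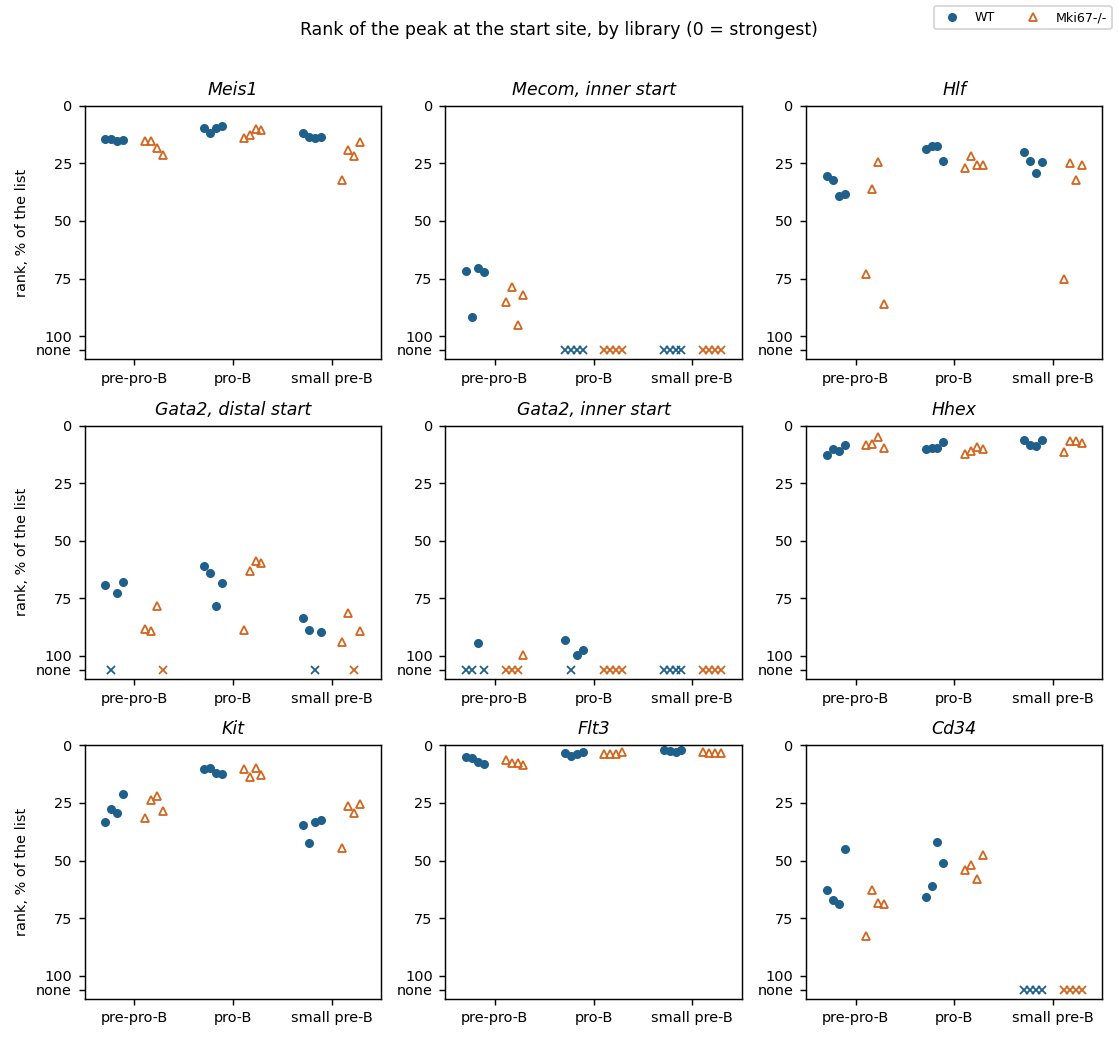
Rank of the peak over each start site (y axis, percent of the library's deposited list, 0 the strongest; crosses mark libraries with no peak there) by stage (x axis), 1 point per library, WT as filled circles and Mki67-/- as open triangles. Flt3 and Hhex stay among the strongest peaks in all 24 libraries, the Cd34 peak is missing from all 8 small pre-B libraries, and the inner Mecom start has a peak only in pre-pro-B.

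In all, 130 regions lay in the 9 windows, and 89 of them had a peak in at least 4 libraries. Among strong peaks, 20 of 49 tested member regions changed from pre-pro-B to pro-B, 15 lower and 5 higher, where 44.3% of 54532 regions changed, 23.3% lower and 21.1% higher. From pro-B to small pre-B, 7 of 29 changed, 6 lower and 1 higher, where 21.4% of 46299 changed, 11.8% lower and 9.57% higher. The 5 higher were the Meis1, Hlf, Gata2 and Kit sites with a strong peak mostly in pro-B given above, and the 1 higher at the second step was the Flt3 site that opened again. Of 7 member regions that overlapped an annotated start of any gene, 1 was lower at the first step and 0 higher, against 4.42% and 6.55% of all such regions. The region that was lower lies 140.5 to 142.0 kb from the Meis1 start, beyond the far end of the gene, at the start of the RNA gene 8430419K02Rik, and was strong in 8 of 8 pre-pro-B and 0 of 16 later libraries. At the second step 0 of 6 changed, against 3.23% lower and 1.52% higher. Of 42 member regions away from starts, 14 were lower and 5 higher at the first step, against 27.8% and 24.5% of all. Of 23 at the second step, 6 were lower and 1 higher, against 14.3% and 11.8%.

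The deposited lists give the on and off patterns. Of the 89 member regions, 14 (15.7%) had a peak in 8 of 8 pre-pro-B libraries and in none of the 16 later ones, a pattern of 10.1% of all 107685 regions. They were spread over Meis1 and Mecom with 3 each, Flt3 with 3, Lmo2 and Kit with 2 each, and Hhex with 1. A peak in all 24 libraries was found in 15 regions (16.9%), against 24.9% of all regions. A peak in 8 of 8 pro-B libraries alone was found in 1 region, 1.20 to 1.45 kb upstream of the upstream Mecom start (1.53% of all), and 0 regions were in small pre-B alone (0.794% of all). These shares are a description of the chosen genes.

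The length covered by strong peaks showed a drop as well. Meis1 had 6778 ± 1664 bp covered at first, then 2529 ± 636 and 1042 ± 301 bp. At the first step 6 of the 9 genes were lower and 2 higher by the exact test, against 66.8% lower and 11.9% higher among all genes, so a drop in covered length was the common course. The median difference was -1144 bp over the 9 genes and -441 bp over all genes. Hlf and Gata2 covered more against that course, 694 ± 499 to 1382 ± 256 bp and 581 ± 115 to 922 ± 178 bp (exact test, adjusted p = 0.000862 and 0.00155). Kit and Lmo2, not called by number, were lower by length (2808 ± 620 to 1940 ± 148 bp and 2830 ± 947 to 1686 ± 205 bp; exact test, adjusted p = 0.00515 and 0.0107). At the second step 5 were lower, Meis1, Mecom, Hlf, Gata2 and Kit, and 0 higher, against 30.2% and 13.4% of all genes.

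**Figure D4:**
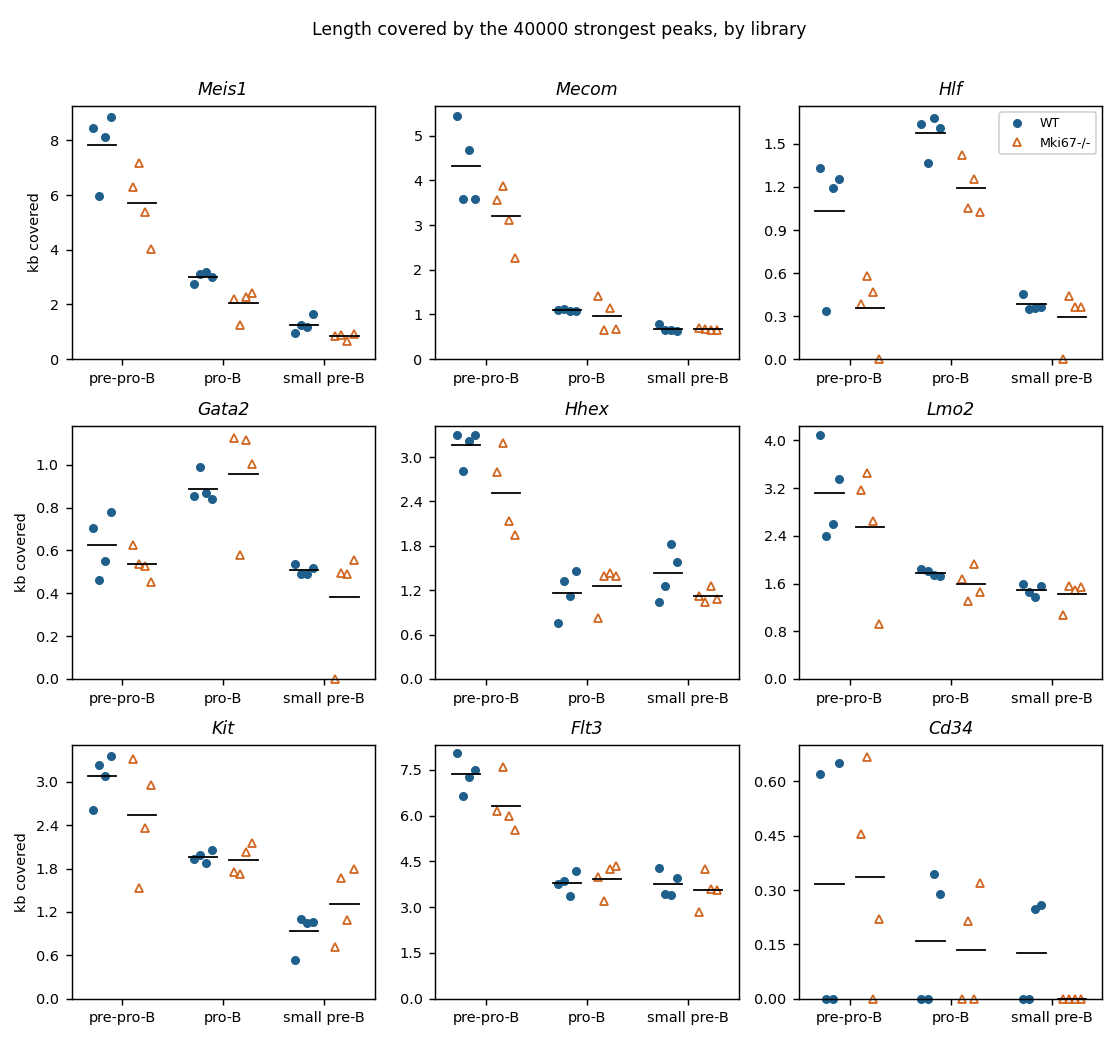
Length in kb covered by strong peaks in each gene's window (y axis) by stage (x axis), 1 point per library, WT as filled circles and Mki67-/- as open triangles, with a black line at each group's mean of 4. Meis1 and Flt3 show the largest drop from pre-pro-B to pro-B, and Hlf and Gata2 reach their highest values in pro-B.

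Loss of Mki67 was compared within each stage and across stages, on the deposited lists. No member gene passed the adjusted test: 0 of 9 across stages, where 0 of 17594 genes (0%) did. At an unadjusted p under 0.05 the share of all genes was 5.08%, 3.93% lower and 1.15% higher in Mki67-/-, and 1 of the 9 members, Meis1, was lower. Among strong peaks 0 of 9 members and 0 of 16344 genes (0%) passed, with 4.45% of genes at an unadjusted p under 0.05, 2.24% lower and 2.21% higher. Of the members Meis1 and Hlf were lower at that level. By covered length in the deposited lists 0 of 9 passed, against 0.0171% of genes.

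Meis1 had the smallest p-value of the 9 genes by genotype. The WT libraries had 19, 16, 18 and 19 peaks in pre-pro-B, then 20, 19, 19 and 18, then 11, 6, 9 and 11. The Mki67-/- libraries had 16, 16, 15 and 16, then 19, 13, 19 and 17, then 3, 7, 6 and 10. The genotypes overlapped in every stage. The means over 12 libraries were 15.4 ± 4.81 and 13.1 ± 5.33, where the SD holds the spread over stages (exact permutation test within stages, p = 0.00983, adjusted p = 0.748). Among strong peaks they were 7.0 ± 2.63 and 5.50 ± 2.65, with unadjusted p = 7e-05 and adjusted p = 0.229 by the same exact permutation test. In pre-pro-B the strong-peak counts of the genotypes did not overlap, 10 in each WT library against 8 or 9, and 0.378% of all genes were lower in Mki67-/- without overlap in that stage. Background coverage was also lower in Mki67-/-, with medians per stage of 3.50 against 4.67, 2.93 against 3.20 and 2.7 against 3.19, and its part in the difference was not tested.

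Hlf was the other gene whose genotypes stood apart in a stage. Its deposited lists had 6, 6, 7 and 8 peaks in WT and 3, 4, 3 and 3 in Mki67-/- pre-pro-B libraries, lower with no overlap, as was so for 0.519% of all genes. The difference of -3.50 peaks had p = 0.0286 by the exact permutation test, which is the smallest p that 4 against 4 libraries can give. In pro-B the counts were 7, 7, 5 and 6 against 7, 6, 6 and 5, and in small pre-B 4, 1, 2 and 2 against 3, 4, 2 and 2, both overlapping. The difference between the genotype effects in pre-pro-B and pro-B, 3.25 peaks, had p = 0.0429 and an adjusted p of 1 by the exact permutation test. A site 9.36 to 9.76 kb into Hlf had a peak in 4 of 4 WT pre-pro-B libraries and in 0 of the other 20 libraries. It met the filter of at least 4 libraries through that group alone. With its peaks placed so, the exact permutation test can only give p = 0.0286, so this p is no support for a difference. By genotype across stages, 1.84% of all regions had an unadjusted p under 0.05. The other such member region lies 146.9 to 147.7 kb from the Meis1 start, with a peak in 10 of 12 WT and 5 of 12 Mki67-/- libraries (exact permutation test, p = 0.0306). Of 89 member regions 0 passed the adjusted test, as did 0% of all regions.

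For the other members no genotype difference passed the test. Their mean deposited counts in WT and Mki67-/- libraries were 9.08 and 7.67 for Mecom, 3.33 and 2.83 for Gata2, 4.83 and 5.50 for Hhex, 5.08 and 4.75 for Lmo2, 4.50 and 4.75 for Kit, 12.5 and 12.3 for Flt3, and 2.33 and 2.00 for Cd34. Their SDs were 0.835 to 6.39 peaks over 12 libraries, and all adjusted p were 1 by the exact permutation test. In all, 7 of 9 members had a lower mean in Mki67-/-, as had 57.8% of all genes. By strong peaks 7 of 9 were lower and 2 higher, against 39.3% and 35.9% of all genes. Among strong peaks Hhex turned to the lower side (2.5 and 1.92) and Flt3 to the higher (7.67 and 7.75). Within each genotype the stage course was seen as well: by strong peaks in the first step 4 genes in WT (Meis1, Mecom, Lmo2 and Flt3) and 2 in Mki67-/- (Meis1 and Flt3) were lower without overlap, where 16.1% and 15.5% of all genes were. Hlf and Gata2 in WT, and Hlf in Mki67-/-, were higher without overlap, as were 19.1% and 17.5% of all genes.

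Genes that act with these 9 were counted from gene lists. Of 22 other stem and multipotent progenitor genes, 21 could be tested, and 8 were higher and 6 lower from pre-pro-B to pro-B, where 24.7% of all genes were higher and 21.1% lower. Those higher included Msi2, an RNA-binding protein (13.8 ± 1.28 to 23.9 ± 1.81 strong peaks), and Erg, an ETS factor (6.63 ± 0.744 to 14.6 ± 1.06). Gfi1b, a zinc-finger repressor, went from 1.5 ± 0.756 to 6.0 ± 0.535. Etv6, an ETS repressor, was lower (13.8 ± 1.16 to 7.38 ± 1.41). Each of these 4 had an adjusted p of 0.00164 by the exact permutation test. From pro-B to small pre-B 5 of 21 were lower and 0 higher, where 11.9% and 11.4% of all genes were. Among the 5 were Runx1 (15.4 ± 1.19 to 10.5 ± 2.33) and Tal1 (1.88 ± 0.354 to 0.750 ± 0.463).

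Of 12 genes for protein partners of Lmo2, Gata2 and Meis1, 11 could be tested. At the first step 3 were higher and 2 lower, and at the second 0 higher and 2 lower, against shares of all genes of 24.7% and 21.1%, then 11.4% and 11.9%. The basic helix-loop-helix partners Lyl1 (3.63 ± 0.518 to 5.0 ± 0) and Tcf3 (4.00 ± 0 to 6.0 ± 0) were higher at the first step. The Meis1 partner Hoxa9 was lower (4.50 ± 0.535 to 3.00 ± 0.926). Hoxa9 turned to a difference of 0.25 peaks upward in the deposited lists, and Lyl1 to -0.63 peaks in the gene body alone. Gata1 had 0 strong peaks in all 24 libraries.

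Of 12 genes of Kit and Flt3 signalling, 2 were higher and 5 lower at the first step (24.7% and 21.1% of all genes) and 1 higher and 3 lower at the second (11.4% and 11.9%). Grb2, the adaptor that links receptors to Ras, went from 13.1 ± 0.835 to 6.38 ± 0.518 strong peaks. Cbl and Cblb, ubiquitin ligases that turn receptors over, went from 7.25 ± 0.886 to 3.25 ± 0.886 and from 8.5 ± 0.926 to 4.88 ± 0.641. Kitl, the ligand of Kit, had 0.875 ± 0.354 in pro-B and 0 in all small pre-B libraries (exact permutation test, adjusted p = 0.0129). Kitl met the filter of at least 4 compared libraries through pro-B alone, so this p adds no support to the counts. By genotype 0 genes of these lists passed the adjusted test.

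The gene whose covered length ran most like that of each member over the 24 libraries was found among genes at least 1 Mb away or on another chromosome. For Meis1 it was Mtor (Pearson's r = 0.980), for Mecom Cdc45 (0.985), for Hlf E2f8 (0.947), for Gata2 Ywhah (0.883) and for Flt3 Ddx56 (0.975). For Hhex it was Dgcr8 (0.969), for Lmo2 Col9a3 (0.954), for Kit Krt7 (0.916) and for Cd34 Ifnb1 (0.826). These are the best of all genes, and the 24 points share libraries, depth and stage, so they describe a common course only.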

How the data were processed

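ATAC-seq libraries were deposited as 1 peak list per library. Per the submitters' processing notes, the authors used Trimmomatic, MACS2, deepTools, DiffBind and DESeq2 with mm10; versions are not given in the sources used here. Per the narrowPeak format, the deposited score is a whole number that ranks peaks, the fold enrichment deposited with each peak is a ratio of its summit to the local background, and the deposited -log10 p and -log10 q are the authors' values for each peak. The lowest deposited -log10 q was 2 in each list to within rounding. Read totals were not used here, so no counting intervals are given. Background coverage was worked out for each library by solving its fold enrichments and p-values at 3000 summits.

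Overlapping or touching entries were merged within a library on chromosomes 1 to 19 and X. Peaks were counted in each gene body and 10 kb on both sides, and joined over 24 libraries to 159326 regions. An overlap of 1 bp was enough to score a region as present in a library. Genes and regions with a peak in at least 4 compared libraries were tested with Python 3.11.15 and numpy 2.4.6. Genotype was permuted within stage on the deposited lists, and stage within genotype on the 40000 strongest peaks. The smallest p these tests allow is 0.0286 within a stage, 0.000408 between stages and 5.83e-06 for genotype across stages. The tests were also run on simulated counts, in which genes with few strong peaks were not changed. That run therefore does not show how well changes are found at members such as Cd34 and Gata2.

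The members and gene lists were chosen with earlier results of these data known. Named were the 9 members, up to 4 genes of each other list per comparison, up to 4 regions per member, step and direction in order of p, start regions, up to 3 regions per direction by genotype, other genes in a member's window, and the gene most alike. Alternatives were other list lengths, other windows, covered length, a replicate block and leaving out libraries. Pairing of equal replicate numbers was not assumed. The values of 1 listed gene are not reported here.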

Additional observations from a re-analysis of the deposited data

Results flagged for a closer look

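In all, 132 groups of 4 values were examined: counts at each member gene, sums over the members, peak numbers and background coverage. In 31 of them, all counts at a member gene, 1 library stood apart from the other 3 by Dixon's criterion. Chance flags about 1 in 20 groups, and with small whole numbers 3 equal counts are enough: 22 of the 31 were 1 peak apart.

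Mki67-/- small pre-B replicate 1, the shortest list, was lowest at Lmo2 (2 deposited peaks against 4 in each other library, and 2 strong peaks against 3), at Cd34 (0 deposited against 1), and at Hlf and Gata2 (0 strong against 1 each). At Mecom it was highest (2 strong against 1). WT small pre-B replicate 1 was highest at Lmo2 (6 deposited against 4), Kit (6 deposited against 3) and Mecom (2 strong against 1). Mki67-/- pre-pro-B replicate 4 was lowest at Lmo2 (1 strong against 4), Mecom (3 strong against 5), Hlf (0 strong against 1) and Gata2 (2 deposited against 3).

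Mki67-/- pro-B replicate 2 was lowest at Meis1 (4 strong against 6), Gata2 (1 strong against 2) and Flt3 (6 strong against 7). Mki67-/- pro-B replicate 1 was lowest at Hhex (1 strong against 2) and highest at Lmo2 (3 strong against 2), and replicate 3 was highest at Mecom (7 deposited against 6). WT pro-B replicate 1 was lowest at Flt3 (9 deposited against 12), replicate 2 highest at Lmo2 (4 deposited against 3) and replicate 4 lowest at Cd34 (1 deposited against 2).

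In WT pre-pro-B, replicate 4 was lowest at Mecom (4 strong against 6) and Flt3 (9 strong against 10), and replicate 2 lowest at Hlf (1 strong against 2). In Mki67-/- pre-pro-B, replicate 3 was lowest at Meis1 (15 deposited against 16) and Cd34 (0 strong against 1), and replicate 2 highest at Hlf (4 deposited against 3) and Flt3 (10 strong against 9). In WT small pre-B, replicate 3 was highest at Hhex (4 strong against 2) and replicate 2 lowest at Flt3 (6 strong against 7).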

How the results depend on the processing

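Of the member genes, 0 passed by genotype under every setting run. Leaving out 1 library gave 5 to 7 changed member genes at the first step, 3 to 4 at the second and 0 by genotype, where 46.7 to 47.7%, 24.7 to 26.4% and 0% of all genes changed. It gave 19 to 23, 7 to 9 and 0 member regions, where 45.5 to 46.5%, 22.3 to 24% and 0% of all regions changed. The first step gave 3 genes with 50 kb on both sides (61.3% of all genes), and the second 5 by covered length (43.6%). Regions at the first step numbered 37 of 86 tested in the deposited lists (40.7% of all regions) and 8 with 20000 peaks (44.1%). At the second they numbered 15 of 54 in the deposited lists (16% of all), 1 with 20000 peaks (24.3%) and 13 with a -log10 q of at least 10 (16.9%). How many member regions could be tested in the latter 2 settings was not counted, so those counts cannot be set against the shares. The cause of these differences between settings was not tested. Equal replicate numbers did not pair the libraries (correlations of -0.366 to 0.197): with a replicate block the second step gave 0 genes and 0 regions, and 0% of all genes passed there, the smallest p of that fit being 0.00781. The library with its own number was the best match in 2 of 8 cases at both steps among strong peaks, and in 2 and 1 of 8 in the deposited lists.

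Directions turned as follows, as differences in peaks. By genotype: with 40000 peaks Hhex -0.58 and Flt3 0.083; with a -log10 q of at least 10 Kit -0.33; by covered length Kit -202 bp; without Mki67-/- pro-B replicate 2 Flt3 0.028, in a range down to -0.64 over such runs. At the first step: in deposited lists Meis1 1.13, Hhex 0.375 and Hoxa9 0.25; with 20000 peaks Lmo2 1.00 and Kit 1.13; with a -log10 q of at least 10 Meis1 0.375; in gene bodies Hhex 0.875, Kit 0.125, Cd34 0.50 and Lyl1 -0.63; with 50 kb Lmo2 1.38, Flt3 1.00 and Hoxa9 0.375; by covered length Lyl1 -127 bp and Pik3cd -70.3 bp. At the second step: in deposited lists Kit 0.50 and Cblb -0.25; with 20000 peaks Mecom 0.125, Flt3 -0.25 and Pax5 1.38; with a -log10 q of at least 10 Kit 0.625 and Flt3 -0.25; in gene bodies Mecom 0.125 and Hhex -0.88; with 50 kb Lmo2 -0.13 and Flt3 -3.75; by covered length Lmo2 -230.0 bp and Flt3 -211 bp; without WT pro-B replicate 1 Hhex -0.042 and without WT small pre-B replicate 3 Hhex -0.13, in a range up to 0.292 over such runs.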

Other observations

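Of 12 early B genes, 10 had more strong peaks in pro-B and 0 fewer, where 24.7% of all genes had more and 21.1% fewer: Ebf1 went from 4.88 ± 1.36 to 17.4 ± 1.60, Pax5 from 7.0 ± 0.756 to 12.8 ± 0.463 and Cd79b from 2.25 ± 0.463 to 6.13 ± 0.354 (SD, n = 8 each; exact permutation test, adjusted p = 0.00164 each). Of 8 T and NK cell genes 5 had fewer and 0 more. Of 6 plasmacytoid dendritic cell genes, 4 had more and 2 fewer at that step. At the second step 4 of the 12 early B genes had fewer, among them Vpreb1, a part of the surrogate light chain (5.63 ± 0.744 to 3.38 ± 0.518; exact permutation test, adjusted p = 0.00468), and 0 more. Of 8 erythroid and megakaryocyte genes 7 could be tested; 3 had more and 1 fewer at the first step and 0 changed at the second. Of 6 mature B genes 1 had more and 1 fewer at the first step, and 2 more at the second. Of 8 myeloid genes 3 had fewer and 0 more at the first step, and of 7 tested at the second 3 had more and 0 fewer. At the second step 1 of 5 tested T and NK cell genes had fewer and 0 more, and of the plasmacytoid dendritic cell genes 2 had more and 1 fewer, where 11.4% of all genes had more and 11.9% fewer. The part of these changes in the results at the stem and progenitor genes was not tested.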
